A study of Mus musculus with 6 samples.

Results

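The miR-34 and miR-449 microRNAs form 1 seed family, and its 4 members examined here are the guide arms mmu-miR-34a-5p, mmu-miR-34b-5p, mmu-miR-34c-5p and mmu-miR-449a-5p (mmu for mouse, left out from here on), chosen by name from the 1976 mature mouse miRNAs of the table; 2 of the 4 had reads. Small RNA was sequenced from extracellular vesicles, labelled as exosomes, that were released by primary hepatocytes of wild-type C57BL/6J mice. The PA group has 3 libraries from cells given 600 µM palmitic acid, a saturated fatty acid that hepatocytes store as lipid, and the Control group has 3 libraries from cells given 0 µM. Fatty liver and endothelial dysfunction are named in the series title, and the comparison made here asks whether vesicles of fatty-acid-treated hepatocytes carried more or less of this family. Nothing in the labels states whether the replicates were separate animals, cultures or repeat preparations, and p-values therefore describe library-to-library spread, which may be technical. Since only vesicle RNA was sequenced, more vesicles, more miRNA per vesicle and a different mixture of donor cells cannot be told apart.

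A mature miRNA guides Argonaute to messenger RNAs mainly through its seed, the bases next to its 5′ end, so miRNAs with the same seed share many targets. miR-34a is transcribed under the tumour suppressor p53 and represses genes of cell cycle entry and survival, among them Bcl2, Met and the deacetylase gene Sirt1. In mouse liver, miR-34a is known for rising with steatosis, where its repression of Sirt1 has been studied. miR-34b and miR-34c come from a shared primary transcript and, with the miR-449 genes, are abundant in testis and in multiciliated epithelia, where they are needed for cilia to form.

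Mature sequences of 3 of the 4 members were matched by name in RefSeq (GRCm38.p6). They are printed with those of the further miRNA that carries the seed and of the partner arms that gave reads, because the seed is what joins the family and the remaining bases are what a read must match to be assigned to a member. Capitals mark the seed, bases 2 to 8 counted from the 5′ end; arms without that seed are in lower case throughout.
miR-34a-5p: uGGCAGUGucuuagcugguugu
miR-34b-5p: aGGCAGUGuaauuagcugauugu
miR-449a-5p: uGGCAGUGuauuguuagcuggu
miR-449c-5p: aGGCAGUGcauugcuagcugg
miR-34b-3p: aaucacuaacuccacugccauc
miR-34c-3p: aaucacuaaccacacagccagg
Of 1679 mature names in that reference, 4 have these bases in the seed position, and they are the first 4 printed. miR-34c-5p, the remaining member, and miR-449b had no mature sequence there, so neither could be printed or counted. Aligned from the 5′ end without gaps, miR-34a-5p and miR-449a-5p had the same base at 15 of 22 positions. miR-34a-5p and miR-34b-5p matched at 11 of 22, identical from base 2 to base 9. These counts can understate likeness beyond the seed, because without gaps an extra base shifts every later position. miR-34a-5p has 22 bases and miR-34b-5p has 23, and no alignment with gaps was made.

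The members come from 3 loci. The Mir34a hairpin lies on chromosome 4 (chr4:150068454-150068555, GRCm38, plus strand), and its end overlaps an exon of Gm37795, a transcript on the same strand. Mir34c (chr9:51103034-51103110) and Mir34b (chr9:51103562-51103645) lie on the minus strand of chromosome 9 with 451 bases between them, inside an intron of Btg4, which is transcribed from the other strand. Mir449a (chr13:113037534-113037624), Mir449b (chr13:113037419-113037498) and Mir449c (chr13:113035983-113036091) share the plus strand of chromosome 13 in an intron of Cdc20b, a gene of multiciliated cells.

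The deposited table gives log2(adjusted count + 1) values after an adjustment that is modelled here as a match to a common library size. Whole reads were recovered from them by undoing that adjustment, and RPM here means reads per 1000000 recovered miRNA reads. The PA libraries held 799057, 761713 and 613435 reads in replicates 1, 2 and 3, and the Control libraries 95327, 658110 and 252457. The library factors fitted for the adjustment did not follow these totals. PA replicate 3 had a factor of 1.68, and Control replicate 2, with more reads, 0.369. miR-122, the dominant hepatocyte miRNA, together with miR-122b, whose reads cannot be separated from it with certainty, took 11.7% to 15.3% of PA reads and 69.2% to 87.7% of Control reads. Reads left after removing both, called reads other than miR-122 below, therefore numbered 676746, 672233 and 534260 in PA libraries, against 29364, 80796 and 52615 in Control libraries. A Control library could thus show far fewer rare miRNAs than a PA library, and each level below is read against that limit.

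miR-34a-5p was found in every PA library and in no Control library. It had 118, 184 and 56 reads in PA replicates 1, 2 and 3, against 0, 0 and 0 in Control replicates 1, 2 and 3. In RPM these PA levels were 148 (95% Clopper-Pearson interval 122 to 177), 242 (208 to 279) and 91.3 (69.0 to 119), a mean of 160 ± 75.9 (SD, n = 3). The groups did not overlap, and the exact two-sided permutation test of RPM gave p = 0.1, which is the lowest value possible with 3 per group. Non-overlap with PA above Control was found for 55.8% of the 181 miRNAs tested, so it does not set miR-34a-5p apart. A count of 0 allowed up to 31.5, 4.56 and 11.9 RPM in Control replicates 1, 2 and 3, taking 3 reads as the limit, and each of these limits lay below the lowest PA level. These intervals and limits hold counting error alone, because PCR copies of a molecule are counted as separate reads.

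**Figure D1:**
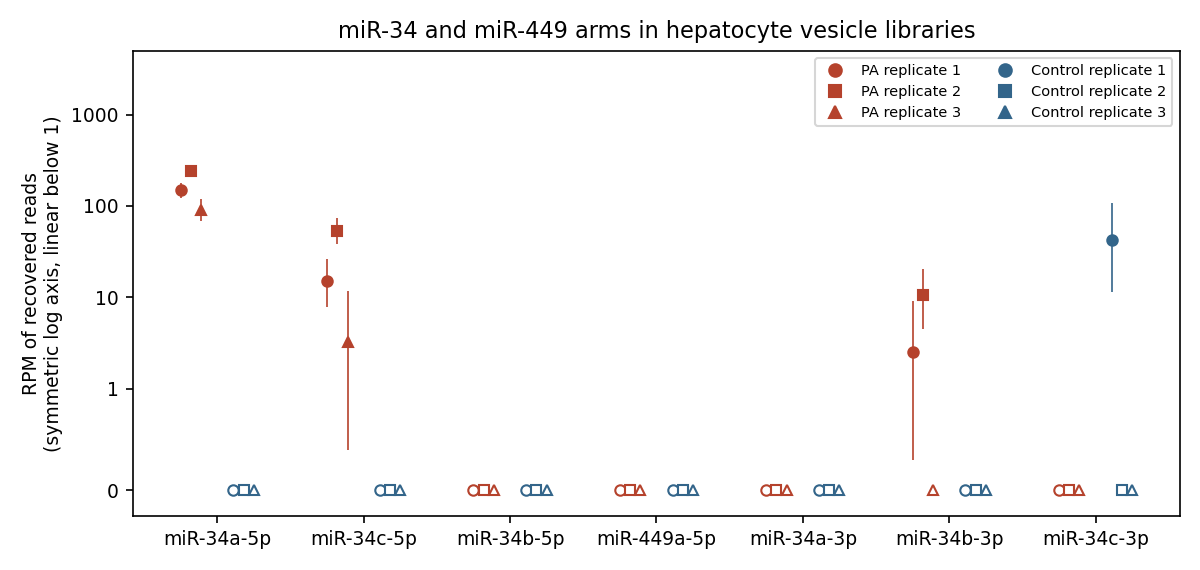
RPM of recovered reads (symmetric log axis, linear below 1) for the 4 members and for 3 partner arms, with PA libraries (red) left of Control libraries (blue). Filled points carry 95% Clopper-Pearson intervals and open points are libraries with 0 reads; miR-34a-5p stands at 91.3 to 242 RPM in PA libraries and at 0 in Control libraries.

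How far above Control miR-34a-5p stood depends on the scale on which 0 reads are judged. Against a floor of 3 reads over the whole Control group, it was at least 53.7-fold higher in PA libraries in RPM of all reads. On the deposited scale, where the PA libraries had adjusted counts of 57.8, 64.5 and 33.2 and the floor was 2.60, it was at least 20-fold higher. Among reads other than miR-122, where PA levels were 174, 274 and 105 RPM and the floor was 18.4 RPM, it was at least 10-fold higher. Leaving out a library moved the bound on the deposited scale between 11.9, without Control replicate 3, and 23.5, without PA replicate 3. With 3 reads allowed in each Control library in place of 3 over the group, the bound was 6.51 on the deposited scale and 2.82 among reads other than miR-122, the lowest of those computed with all 6 libraries.

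The same limit can be written as the number of miR-34a-5p reads that a Control library would have held at the PA level. At the mean PA share of all reads, Control replicates 1, 2 and 3 would have held 15.3, 105 and 40.4 reads. At the mean PA share of reads other than miR-122 they would have held 5.41, 14.9 and 9.70 reads, 30 in all, where 0 were recovered. At the lowest PA share on that scale, that of replicate 3, the 3 Control libraries together would have held 17.1 reads. For single libraries the limit is tighter: among reads other than miR-122, 3 reads correspond to 102 RPM in Control replicate 1, just under the 105 RPM of PA replicate 3.

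**Figure D2:**
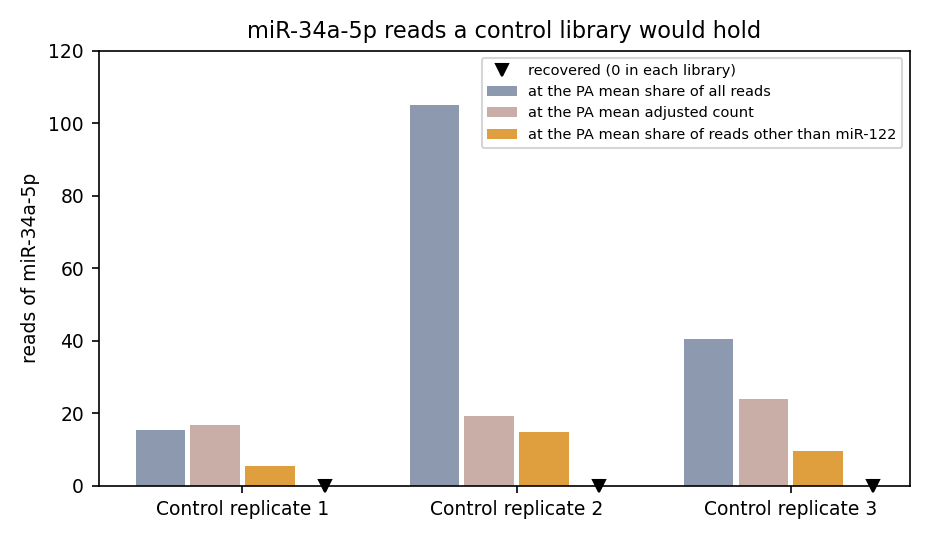
Number of miR-34a-5p reads (linear axis) that each Control library would hold at the mean PA level, by share of all reads, by adjusted count and by share of reads other than miR-122 (bars), with the recovered number (black triangles). The bars run from 5.41 reads in Control replicate 1 to 105 in Control replicate 2, and the recovered number is 0 in all 3 libraries.

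miR-34a-5p was the only member of the 4 to pass the filter for testing, 3 or more libraries with an adjusted count of 10 or higher. Its deposited log2 values were 5.88, 6.03 and 5.10 in PA libraries and 0.44, 0.37 and 0.26 in Control libraries. The Control values are what the adjustment assigns to 0 reads, so their spread is not a measured one. limma gave a log2 difference of 5.31 (SE 0.42, 95% interval 4.35 to 6.27, Benjamini-Hochberg adjusted p = 2.3e-05), higher in 3 of 3 PA libraries. A miRNA without a Control read reaches the filter only if all 3 PA libraries are above it, so the direction was fixed by the filter. The bounds given above are therefore the measure of the change. From adjusted counts the bound is 4.32 as a log2 value. It is the log2 of the mean PA adjusted count over the floor, without the added 1, so it is not the same measure as a limma difference. Among all tested miRNAs, 76 (42.0%) were called higher and 26 (14.4%) lower in PA libraries, and the median log2 difference was 1.94. That median and the bound of 4.32 are different measures and are not compared here. The median was 2.99 in RPM of all reads and 1.18 in RPM of reads other than miR-122, and the called miRNAs were 89 higher and 8 lower on the first of these scales and 57 higher and 41 lower on the second. With libraries centred on the median of tested miRNAs there were 65 higher and 40 lower, and with upper quartiles as the centre 69 and 37.

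The PA libraries differed among themselves. PA replicate 2 held the highest level of miR-34a-5p and PA replicate 3 the lowest, a 2.65-fold range in RPM with intervals that did not overlap. On the deposited scale the range was 1.94-fold, because the adjustment scaled replicate 2 down more than replicate 3. By reads, miR-34a-5p ranked 102 of 610 miRNAs found in PA replicate 1, 92 of 640 in replicate 2 and 122 of 484 in replicate 3. It was thus in the upper part of the abundance range in each PA library.

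miR-34c-5p, the other member with reads, was scarcer and far more uneven. It had 12, 41 and 2 reads in PA replicates 1, 2 and 3, against 0, 0 and 0 in Control replicates 1, 2 and 3. In RPM that was 15.0, 53.8 and 3.26 in PA libraries, a mean of 24.0 ± 26.5 (SD, n = 3) and a 16.5-fold range. The groups did not overlap (exact two-sided permutation p = 0.1), but the lowest PA level lay below the limit of 0 reads in each Control library. Of all the reads of the 4 members in PA libraries, 55 of 413 were miR-34c-5p (13.3%, 95% Clopper-Pearson interval 10.2 to 17.0) and 358 were miR-34a-5p. The miR-34c-5p share was 9.23% (4.86 to 15.6) in PA replicate 1, 18.2% (13.4 to 23.9) in replicate 2 and 3.45% (0.420 to 11.9) in replicate 3. Replicates 2 and 3 differed in this share by more than counting error.

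For miR-34c-5p the Control depth limits what can be said. Against 3 reads over the Control group it was at least 8.06-fold higher in PA libraries in RPM of all reads, at least 2.79-fold on the deposited scale and at least 1.49-fold among reads other than miR-122. These bounds hold for the PA mean only, and the SD over PA libraries, divided by the same floors, was 8.87, 2.67 and 1.62. On the deposited scale PA replicate 3, with an adjusted count of 1.10, was below the floor of 2.60. Without PA replicate 2 the bound on the deposited scale was 1.34 and the mean PA level 9.14 RPM, so replicate 2 carries much of both. Without Control replicate 3 that bound was 1.67. Among reads other than miR-122, PA levels were 17.7, 61.0 and 3.74 RPM, and 0 reads allowed up to 102, 37.1 and 57.0 RPM in Control replicates 1, 2 and 3. On that scale, PA replicates 1 and 3 were below all 3 limits, and a difference from Control was not detectable at this depth for those libraries. miR-34c-5p did not pass the filter; in a limma fit of all 1058 miRNAs with a value above 0 its log2 difference was 2.32 (SE 0.82, adjusted p = 0.132), which rests on the Control values assigned to 0 reads.

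**Figure D3:**
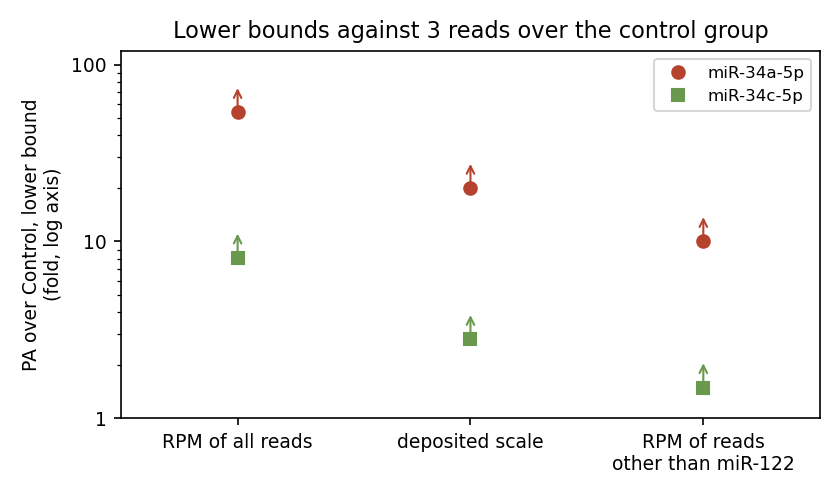
Lower bound of the fold of PA over Control (log axis) for miR-34a-5p (red circles) and miR-34c-5p (green squares) against 3 reads over the Control group, on 3 scales; arrows mark that each point is a lower bound. The miR-34a-5p bounds run from 53.7 to 10 and the miR-34c-5p bounds from 8.06 to 1.49.

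miR-34b-5p and miR-449a-5p had 0 reads in each of the 3 PA libraries and 0 in each of the 3 Control libraries. A count of 0 over a whole group allowed up to 1.38 RPM in PA libraries and 2.98 RPM in Control libraries. The rest of the miR-449 genes gave the same result: miR-449a-3p, miR-449b, miR-449c-5p and miR-449c-3p had no read in any of the 6 libraries. In PA libraries, where miR-34a-5p averaged 160 RPM, seed-sharing miRNAs from the Cdc20b locus were therefore not found at this depth.

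The partner arms were read for the same hairpins. miR-34a-3p had no read in any library, beside 358 reads of miR-34a-5p in PA libraries, which allows the 3p arm up to 0.838% of the reads of that hairpin. miR-34b showed the opposite arm: miR-34b-3p had 2, 8 and 0 reads in PA replicates 1, 2 and 3 and none in Control libraries, whereas its 5p arm had none. The 3 miRNAs with PA reads from this family, miR-34a-5p, miR-34c-5p and miR-34b-3p, each had their highest RPM in PA replicate 2 and their lowest in replicate 3. This order is not particular to the family. miR-182-5p had it too, with 8699, 14373 and 5243 RPM in PA replicates 1, 2 and 3, whereas miR-192-3p, with 90.1, 167 and 103 RPM, was lowest in replicate 1. miR-34c-3p went the other way from its 5p arm, with 0, 0 and 0 reads in PA libraries and 4, 0 and 0 reads in Control replicates 1, 2 and 3. Those 4 reads were 42.0 RPM (95% Clopper-Pearson interval 11.4 to 107) of the shallowest library, in which miR-34c-5p was not found. The 3p arms of miR-34b and miR-34c are close in sequence, and how reads were assigned to miRNAs is not stated in the labels. Their 5p arms could not be compared, because no miR-34c-5p sequence was matched. The split of reads between these neighbours is therefore uncertain, for miR-34b-5p against miR-34c-5p as well.

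Of the 950 miRNAs with a recovered read, 113 (11.9%) had reads in each PA library and none in Control libraries, as miR-34a-5p and miR-34c-5p did. Among these 113, miR-34a-5p ranked 6 by mean PA level and miR-34c-5p ranked 29, beside a median of 9.90 RPM. Of the 113, 17 were tested and all 17 were called higher, a direction that the filter fixed. miR-34a-5p thus belongs to a sizeable set of miRNAs that the Control libraries did not show, and stands near its upper end.

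The 5 miRNAs whose deposited values were most like those of miR-34a-5p were taken by the root mean square difference over the 6 libraries, among 1056 miRNAs. miR-96-5p, of a cluster expressed in sensory and other epithelial cells, was closest, with a difference of 0.103 on the log2 scale. It had 141, 186 and 56 reads in PA libraries and none in Control libraries, nearly the miR-34a-5p numbers. miR-31-3p followed at 0.184, then miR-350-3p at 0.344, miR-192-3p at 0.363 and miR-19b-3p at 0.403. None of these 5 had a Control read. In Control libraries this likeness is therefore set by the values assigned to 0 reads, and it rests on the 3 PA libraries.

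**Figure D4:**
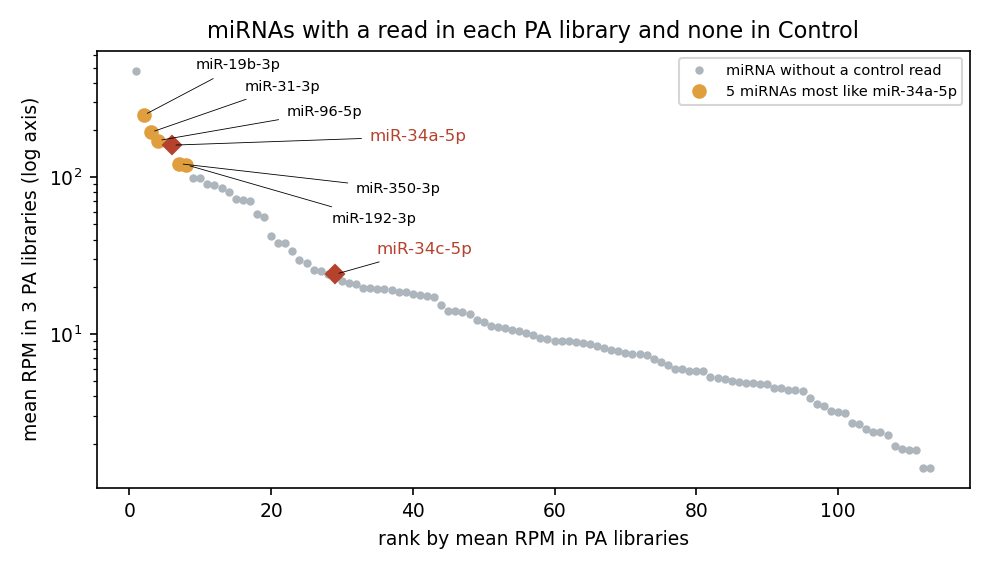
Mean RPM over the 3 PA libraries (log axis) of the 113 miRNAs with a read in each PA library and none in Control, in order of that mean. miR-34a-5p (red, rank 6) and miR-34c-5p (red, rank 29) are marked with the 5 miRNAs most like miR-34a-5p (orange), which lie around miR-34a-5p.

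Other miRNAs linked to p53 gave a mixed picture. The list holds 15 miRNAs that p53 induces or whose processing or transcription has been tied to it, 3 of them members of this family, and 9 passed the filter. Of those 9, 4 were called higher and 0 lower in PA libraries (limma, adjusted p below 0.05), with a median log2 difference of 1.94, the same as over all 181 miRNAs tested, of which 42.0% were called higher. The list median is the same for any miR-34a-5p value above 1.94. The 4 include miR-34a-5p, whose direction the filter fixed. Of the 3 that had Control reads, miR-107-3p, which lies in a gene of coenzyme A synthesis, rose by 4.34 (SE 1.18, adjusted p = 0.0136). Its reads were 306, 360 and 193 in PA libraries against 7, 3 and 0 in Control libraries. miR-16-5p, a repressor of cyclins and Bcl2, rose by 2.76 (SE 0.96, adjusted p = 0.0386), with 400, 759 and 387 reads in PA libraries against 32, 18 and 3 in Control libraries. miR-192-5p, abundant in liver and gut, rose by 1.94 (SE 0.61, adjusted p = 0.0259), no more than the median. These 3 calls depend on the fit: miR-107-3p was lost in 4 of 15 alternatives, miR-16-5p in 8 of 15 and miR-192-5p in 9 of 15. Without PA replicate 1 or 3 none of these 3 was called, and without PA replicate 2 miR-107-3p alone was (adjusted p = 0.0498).

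The remaining p53-linked miRNAs did not pass. miR-194-5p, which shares a transcript with miR-192, stood at -0.23 (adjusted p = 0.720). miR-143-3p, a smooth muscle and fibroblast miRNA, stood at -0.89 (adjusted p = 0.192) and miR-22-3p at -0.66 (adjusted p = 0.259). Relative to the median these were -2.17, -2.83 and -2.60, and among reads other than miR-122 all 3 were called lower (miR-194-5p by -1.38, adjusted p = 0.0492, miR-143-3p by -2.04, adjusted p = 0.0330, miR-22-3p by -1.81, adjusted p = 0.0134). miR-215-5p stood at 1.08 (adjusted p = 0.192). miR-149-5p had 102, 132 and 82 reads in PA libraries against 0, 11 and 20 in Control libraries (adjusted p = 0.227). miR-15a-5p, a neighbour of miR-16 in the genome, had 68, 144 and 13 reads in PA libraries against none in Control libraries but did not reach the filter in PA replicate 3. Of the 6 list members left untested, 2 are miR-34b-5p and miR-34c-5p of this family.

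**Figure D5:**
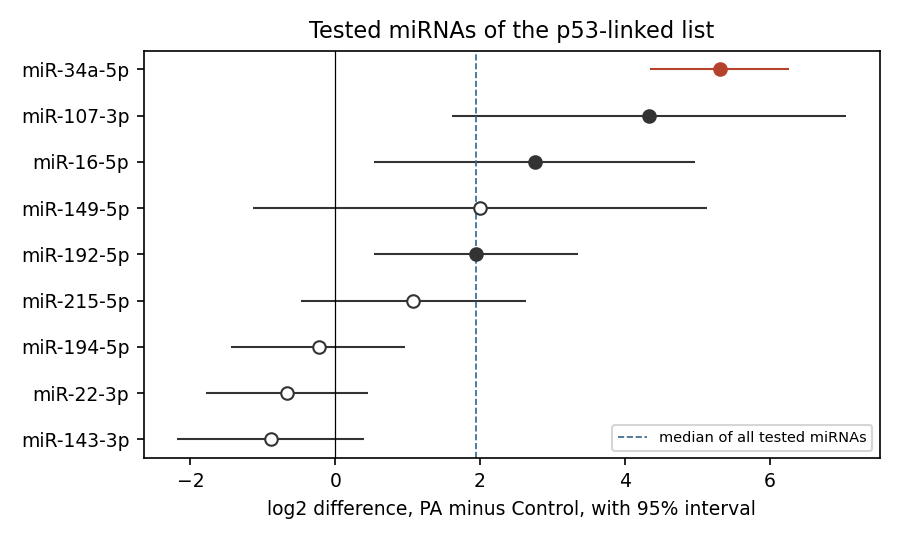
Log2 difference, PA minus Control, of the 9 tested miRNAs of the p53-linked list, with 95% intervals from limma; filled points passed an adjusted p of 0.05 and open points did not. miR-34a-5p (red, 5.31) rests on values assigned to 0 Control reads. miR-107-3p (4.34) rests in part on such a value, that of Control replicate 3, and stood at 3.13 without that library. The dashed line marks the median of the 181 tested miRNAs, 1.94.

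Markers of hepatocytes and of other cells that could contribute vesicles were read beside these values. All 4 hepatocyte miRNAs were found in both groups and together held 302785 to 462456 RPM in PA libraries and 637385 to 825364 RPM in Control libraries. These 4 did not move together: miR-122-5p averaged 109082 RPM in PA libraries and 653425 RPM in Control libraries, whereas miR-148a-3p averaged 207253 RPM in PA libraries and 58073 RPM in Control libraries. The miR-148a-3p order depends on the scale. Among reads other than miR-122 it averaged 239106 RPM in PA libraries and 332339 RPM in Control libraries, with overlapping groups. Its limma difference was 0.83 (adjusted p = 0.453). By limma 1 of the 4 was called higher (miR-192-5p) and 1 lower (miR-122-5p). Of 4 multiciliated-cell miRNAs, all of them from this seed family, miR-34c-5p alone had reads, and miR-449a-5p, miR-449c-5p and miR-34b-5p were at 0. Of 8 biliary or other epithelial miRNAs, 7 had a read in PA libraries and 6 in Control libraries, and their sum was 5639 to 15161 RPM in PA libraries against 384 to 1145 RPM in Control libraries. miR-182-5p held most of that sum. miR-183-5p averaged 433 RPM in PA libraries and 77.1 RPM in Control libraries without overlap, but its groups overlapped among reads other than miR-122. The miR-200 family members of the list did not follow that sum. miR-200b-3p averaged 9.80 RPM in PA libraries and 65.4 RPM in Control libraries. For miR-200a-3p the means were 10.3 RPM in PA libraries and 20.2 RPM in Control libraries. The groups overlapped in both cases (exact two-sided permutation p = 0.4 for each). miR-200c-3p had 4, 4 and 3 reads in PA libraries and 3, 0 and 0 in Control libraries, with means of 5.05 and 10.5 RPM. miR-429-3p had no PA read and 14 reads in Control replicate 3, and miR-141-3p had 1 PA read and no Control read. Among reads other than miR-122 the epithelial sum was 6474 to 17179 RPM in PA libraries and 3131 to 5493 RPM in Control libraries. The part of these epithelial miRNAs in the miR-34a-5p result was not tested. Immune and Kupffer cell miRNAs held 202 to 398 RPM in PA libraries and 206 to 1615 RPM in Control libraries, and those of stellate cells and fibroblasts 463 to 599 RPM against 157 to 2150 RPM. Endothelial miRNAs held 3743 to 4956 RPM in PA libraries and 866 to 3418 RPM in Control libraries. Erythroid miRNAs held 24.5 to 160 RPM in PA libraries and 38.0 to 5696 RPM in Control libraries, and striated muscle miRNAs 26.3 to 50.1 RPM against 95.7 to 2360 RPM. Among reads other than miR-122 these sums were lower in each PA library than in each Control library: endothelial miRNAs held 4420 to 5616 RPM in PA libraries against 7055 to 16402 RPM in Control libraries, immune and Kupffer cell miRNAs 232 to 451 RPM against 988 to 5245 RPM, and stellate cell and fibroblast miRNAs 525 to 708 RPM against 1275 to 6981 RPM. Erythroid miRNAs held 28.1 to 181 RPM in PA libraries against 309 to 18492 RPM in Control libraries on that scale, and striated muscle miRNAs 29.8 to 59.1 RPM against 780 to 7662 RPM. On that scale the endothelial order is the reverse of that among all reads.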

How the data were processed

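Per the labels' protocols, RNA was extracted with Trizol and libraries came from a NEBNext small RNA kit. Bowtie2, bedtools, GRCm38 and mm10 are named in the submitters' processing notes; the rule by which reads were counted is not given in the sources used here. Deposited values are log2(adjusted count + 1), although the table is named as raw counts, and no label states the adjustment. From the values, it was modelled as a negative binomial quantile match to a common library size with 1 dispersion (1.39). Whole reads resulted for 98.5% of 1936 tested values, within 0.0015 (log2) where neighbouring read numbers lay at least 0.02 apart. The mean of each row was chosen by how close it brought low reads to whole numbers, so this share is in part selected for. On data simulated for 1058 rows, 99.8% of reads were recovered within 0.2%. The simulation used the same model, so it cannot test whether that model was the one applied to the deposited values. The adjustment may have included other libraries, since 108 rows have values but no recovered read. No replicates agreed within sampling noise.

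limma 3.58.1 (R 4.3.3, mean-variance trend, group term, Benjamini-Hochberg, two-sided) was fitted to the log2 values of the tested miRNAs, those that reached an adjusted count of 10 in 3 or more libraries. In data simulated for this comparison (as many miRNAs as were tested), 10.8%, 44.2% and 89.8% of changes of 1, 2 and 4 (log2) were recovered. A fold on the log2(value + 1) scale understates the change of low miRNAs. Single values used exact permutation tests (scipy 1.17.1). The alternatives were other filters, scalings, pseudocounts and floors, a fit without trend, a replicate block and leaving out each library. Members, lists and tests were chosen with earlier results of these data known. Named miRNAs are the members, their partner arms and seed mates, the p53-linked list, the cell type lists and the 5 most like miR-34a-5p.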

Additional observations from a re-analysis of the deposited data

How the results depend on the processing

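The fitted log2 difference of miR-34a-5p ran from 2.55 to 7.43 over the 14 alternatives that tested it (adjusted p 1.4e-06 to 0.00388). With no Control read its direction was fixed except after centring, which gave 4.52 on the median and 4.77 on the upper quartile. The size rests on 0 Control reads in every alternative, so this range says nothing of stability. With a filter of 50 it was not tested. Its bound of 20 became 53.7 in RPM, 10 among reads other than miR-122, 6.51 with 3 reads in each Control library, and ran from 11.9 to 23.5 with a library left out. The miR-34c-5p bound of 2.79 became 8.06 in RPM, ran from 1.34 to 3.97 with a library left out, and could not be given on the deposited scale with 3 reads in each Control library, where the PA mean was below the floor. In a combination chosen after seeing the data, 3 reads in each Control library gave the miR-34a-5p bound as 10 in RPM and 2.82 among reads other than miR-122; the miR-34c-5p bound was 1.5 in RPM, with none among reads other than miR-122. With at least 3 reads required, miR-34a-5p was still found in 3 PA libraries and miR-34c-5p in 2.

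Of all tested miRNAs, 76 were higher and 26 lower; a filter of 50 gave 50 higher, and the lower ones were 60 with no filter, 8 in RPM, 41 among reads other than miR-122 and 40 after centring on the median. Leaving out a library gave 63 to 85 higher and 20 to 32 lower. In the p53-linked list, 4 higher became 2 with no filter, 1 among reads other than miR-122, 2 after centring on the median or the upper quartile, and 1 to 3 with a library left out; 0 lower became 3 among reads other than miR-122 and 2 after either centring. In RPM of all reads miR-194-5p turned to 0.74, miR-143-3p to 0.08 and miR-22-3p to 0.31, and miR-194-5p also turned to 0.12 without PA replicate 1 and 0.09 without Control replicate 2 (-0.62 to 0.12 with a library left out); none of these passed. The causes were not tested.

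Deviations of PA and Control libraries with the same replicate number correlated at only 0.21, 0.15 and 0.04 for replicates 1, 2 and 3. For replicates 1 and 2, but not 3, each library still correlated best with the same number in the other group. Whether the numbers pair the libraries was therefore not settled. With the number as a block, 83 were higher and 28 lower, and miR-34a-5p had the same difference of 5.31 (adjusted p = 1.4e-06). Depth limits the Control side: reads other than miR-122 numbered 29364 to 80796 there, so miRNAs as rare as miR-34c-5p could go unseen.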
